A study of Mus musculus with 15 samples.

Results

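The MS4A genes and the leukocyte membrane genes Cd53, Cd37 and Cd52 were followed in the livers of mice fed a cholesterol-rich diet with or without the carotenoid β-cryptoxanthin. The set comprised 10 genes, namely Ms4a4b, Ms4a4c, Ms4a4d, Ms4a6b, Ms4a6c, Ms4a6d, Ms4a7, Cd53, Cd37 and Cd52, and was taken as every probe set that the platform annotation gives to these symbols, which was 19 of 45101 probe sets on the array. Liver RNA came from 15 male C57BL/6J mice with no engineered allele named, each on its own Affymetrix mouse genome array and 8 weeks old when feeding began. For 12 weeks 5 mice ate the chow CRF-1 alone (NC). Another 5 ate the CL diet (CL), in which 0.5% sodium cholate, 1.25% cholesterol and 60% cocoa butter were mixed into 38.23% CRF-1, and β-cryptoxanthin was added to that diet for the remaining 5 (CL+CX). The β-cryptoxanthin content is 0.005% in the sample titles and 0.003% in the treatment text. The study asked which liver genes the CL diet changed and which of them β-cryptoxanthin brought closer to the chow level.

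MS4A proteins cross the membrane several times and sit mostly on blood cells. The best known of them are CD20 of B cells, encoded by Ms4a1, and the β chain of the IgE receptor of mast cells, encoded by Ms4a2. Tetraspanins such as CD53 and CD37 also cross the membrane several times and gather integrins and receptors into patches on leukocytes, whereas CD52 is a short peptide held to the surface of lymphocytes and monocytes by a lipid anchor and belongs to neither family. The liver holds resident macrophages, the Kupffer cells, and gains monocytes and lymphocytes when it is inflamed. In whole liver more cells of a type and more RNA per cell cannot be told apart.

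Values are microarray signals with all arrays brought to a 75th percentile of 54.05, and each difference is in log2 units. A probe set was tested when it reached its array's median, which was 11.3 to 13.5 in scaled signal, in all 5 arrays of at least 1 group. This left 20342 probe sets, and the probe set of highest mean signal stood for each of 10508 genes. Of the 19 member probe sets 11 were tested, including the leading probe set of each of the 10 genes. The leading probe sets of Ms4a4b and Ms4a4c passed this filter only through CL, as did a second probe set of Ms4a6d, and the leading ones of Ms4a6d and Ms4a7 only through CL and CL+CX, so a difference from NC was built into their selection. For those that passed only through CL, lower values in CL+CX were favoured too. Signals of different genes come from different probes, so levels are compared between mice and not between genes. The hepatocyte marker list had 6 genes on the array, all of them tested, with a summed signal of 34047 to 59917 in the 15 livers, and Hnf4a and Apob were lower in CL than in NC.

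In the CL livers 9 of the 10 genes were higher than in NC at an adjusted p under 0.05 (limma, Benjamini-Hochberg over all probe sets tested). Across all genes tested, 7.19% were higher. In the same 9 genes every CL mouse lay above every NC mouse, which held for 6.11% of all genes. The exception in both counts was Cd37. The leading probe sets of Ms4a4b, Ms4a4c, Ms4a6d and Ms4a7 did not pass the filter through NC, so their part in both counts is a description. Those of Cd53, Cd52, Ms4a4d, Ms4a6b and Ms4a6c reached the array median in all 5 NC mice. The differences ran from 0.45 for Cd37 to 2.43 for Cd52, with a median of 2.04 over the 10 genes against -0.08 over all genes tested. Ms4a4b, Ms4a4c, Ms4a6d and Ms4a7 enter this median too, so it is a description as well. With β-cryptoxanthin added all 10 means lay between those of NC and CL. For Ms4a4b and Ms4a4c, which passed the filter only through CL, a mean below CL was favoured by that selection. Cd53 alone passed the test of CL+CX against CL.

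**Figure D1:**
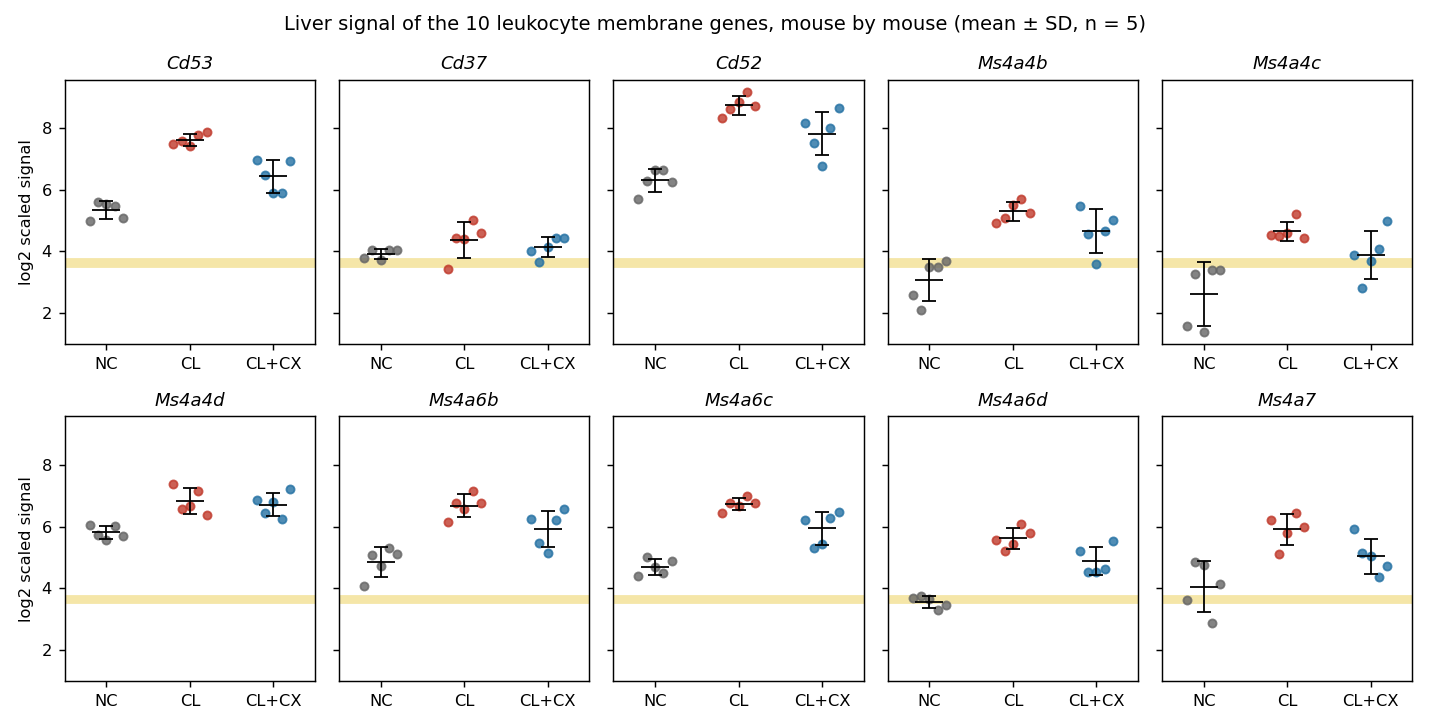
Log2 scaled signal of the leading probe set of each gene in every mouse on the NC, CL and CL+CX diets; points are mice, the horizontal mark and bar are the mean and SD of 5 mice, and the shaded band is the range of the array medians. In 9 genes the CL points lie above every NC point, the CL points of Cd37 spread across the NC points, and the CL+CX points of Cd53 lie between the other groups without touching either.

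Cd53 encodes the tetraspanin carried by nearly all leukocytes. Its signals in the 5 NC mice were 31.6, 48.5, 47.1, 44.9 and 34.1. In the CL mice they were 181, 192, 171, 219 and 235. In the CL+CX mice they were 126, 90.2, 59.5, 60.1 and 122. The 3 diets did not overlap, since the highest CL+CX mouse lay below the lowest CL mouse and the lowest CL+CX mouse above the highest NC mouse. Cd53 was higher in CL than in NC by 2.29 (SE 0.216, limma adjusted p = 4.6e-05), a fold of 4.88, and ranked 49 among the genes raised. Cd53 fell by 1.19 from CL to CL+CX (SE 0.216, limma adjusted p = 0.0145) and ranked 87 among the genes lowered. Its CL+CX mean remained above NC by 1.10 (SE 0.216, limma adjusted p = 0.00647). A second Cd53 probe set lay below the array median in all 15 mice, with signals up to 11.2. With the mean of both probe sets Cd53 was not called in CL against NC (0.67, limma adjusted p = 0.355), in CL+CX against CL (-0.39, 0.712) or in CL+CX against NC (0.27, 0.746).

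Cd37 encodes a tetraspanin that is prominent on B cells. Its NC signals were 13.7, 16.5, 13.2, 16.6 and 16.4. Its CL signals were 10.7, 21.5, 21.0, 32.4 and 24.3. Its CL+CX signals were 16.3, 12.7, 17.8, 21.6 and 21.6. CL replicate 1 was the lowest of all 15 mice and the other 4 CL mice were above every NC mouse, so the groups overlapped through 1 animal. The difference of CL from NC was 0.45 (95% interval -0.05 to 0.94, limma adjusted p = 0.238), and without CL replicate 1 it was larger and passed the test. The difference of CL+CX from CL was -0.23 (95% interval -0.73 to 0.27, limma adjusted p = 0.643). The signals of Cd37 lay close to the array median.

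Cd52 encodes the CD52 antigen. Its signals were 52.8, 79.0, 100.5, 100.4 and 76.6 in NC. They were 326, 393, 461, 586 and 427 in CL. They were 290.0, 184, 111, 259 and 407 in CL+CX. All CL mice lay far above all NC mice, and the CL+CX mice covered the gap from just above NC to the middle of CL. The CL difference of 2.43 (SE 0.288, limma adjusted p = 0.000118) was the highest among the 10 genes and corresponded to a fold of 5.40. The difference of CL+CX from CL was -0.91 (95% interval -1.53 to -0.30), with a limma adjusted p of 0.0948. CL+CX remained above NC by 1.52 (SE 0.288, limma adjusted p = 0.00524), with no overlap.

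The 7 MS4A members are neighbours. In the RefSeq gene order of the mouse cluster, which runs over 22 protein-coding genes from Ms4a10 to Ms4a3, they stand in the order Ms4a7, Ms4a4c, Ms4a4b, Ms4a6c, Ms4a6b, Ms4a4d and Ms4a6d. Ms4a4a stands between Ms4a7 and Ms4a4c, and Gm8369 between Ms4a6c and Ms4a6b. Of the 15 other genes of the cluster 11 had a named probe set and 2 were tested. Ms4a15, at one end, differed from NC in CL by -0.52 (limma adjusted p = 0.203), and Ms4a3, at the other end, by -0.28 (limma adjusted p = 0.63). Ms4a1, the gene of CD20, had signals of 8.79 to 22.7 in NC, 11.2 to 17.0 in CL and 1.54 to 16.3 in CL+CX and did not reach the filter. Ms4a2, Ms4a10 and Ms4a13 were below the array median in all 15 mice. No gene of the cluster outside the member run was called higher in CL, and 9 of those 11 were too dim for the test.

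**Figure D2:**
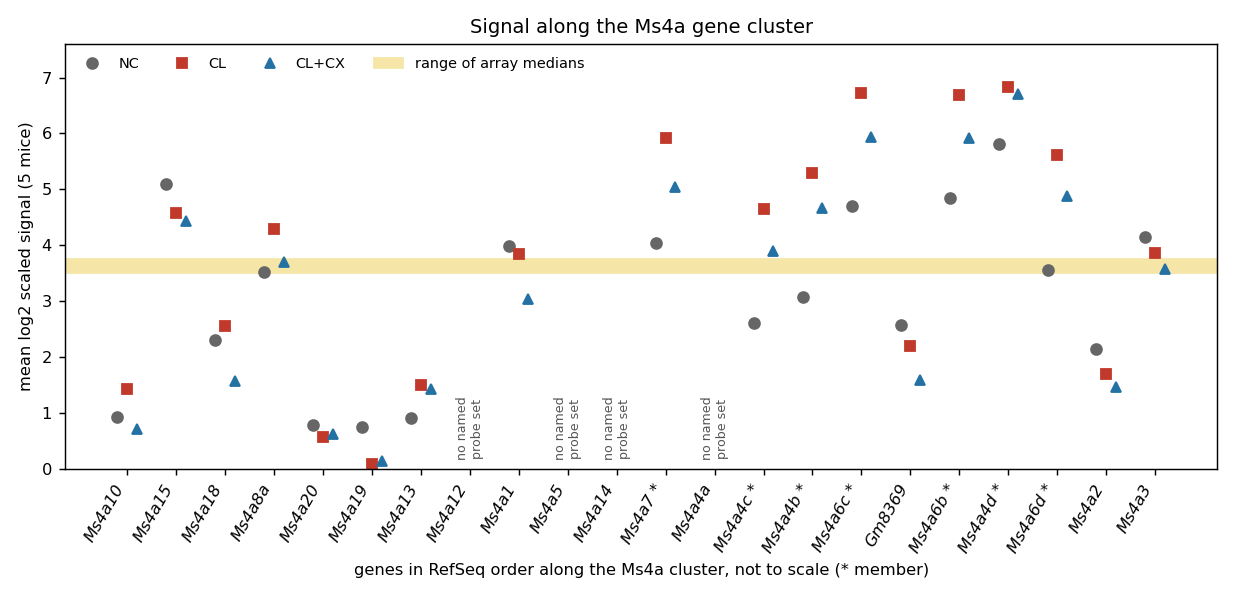
Mean log2 scaled signal of 5 mice per diet for the genes of the Ms4a cluster in RefSeq order, which is not to scale, with members starred and the range of array medians shaded; heights are not comparable between genes, since probes differ. CL lies above NC in each of the 7 starred genes, by 1.02 to 2.23. Of the other genes, Ms4a8a, Ms4a10, Ms4a13 and Ms4a18 also have CL means above their NC means. Ms4a15, Ms4a1, Gm8369, Ms4a2, Ms4a3, Ms4a20 and Ms4a19 have CL means below them. Among these other genes only Ms4a15 and Ms4a3 were tested.

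Promoter sequences were available from RefSeq (GRCm38.p6) for 8 of the 10 genes, in 9 windows, 2 of them for Ms4a7. The 250 bases before the start were compared between all 36 pairs by global alignment. Ms4a4b and Ms4a4c were the most alike, with 70.3% identity against a median of 47.8%. The pair is shown because both genes were higher in CL and share a block next to the start. Capitals mark their longest shared run of 20 bases, and both sequences read 5′ to 3′ on the coding strand, chr19:11443308-11443557 (+) for Ms4a4b and chr19:11407411-11407660 (+) for Ms4a4c.
Ms4a4b: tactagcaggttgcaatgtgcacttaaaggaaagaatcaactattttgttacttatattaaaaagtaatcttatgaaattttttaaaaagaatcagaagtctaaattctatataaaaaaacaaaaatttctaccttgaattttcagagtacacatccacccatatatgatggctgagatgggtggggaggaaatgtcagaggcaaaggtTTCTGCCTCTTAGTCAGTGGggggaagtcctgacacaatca
Ms4a4c: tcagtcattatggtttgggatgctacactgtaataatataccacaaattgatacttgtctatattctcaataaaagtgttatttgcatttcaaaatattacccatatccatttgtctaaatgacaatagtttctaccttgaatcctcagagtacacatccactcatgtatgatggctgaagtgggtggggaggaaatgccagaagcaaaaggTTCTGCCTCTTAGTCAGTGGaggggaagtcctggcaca

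Ms4a6b and Ms4a6c had 51.1% identity over the whole window but the longest identical run of any pair, 48 bases, where the third longest was 10. The run, in capitals, starts 118 bases before the start of Ms4a6b and 49 bases before that of Ms4a6c, so the same letters lie at unequal distances from the annotated starts. The windows are chr19:11518309-11518558 (+) for Ms4a6b and chr19:11469118-11469367 (+) for Ms4a6c.
Ms4a6b: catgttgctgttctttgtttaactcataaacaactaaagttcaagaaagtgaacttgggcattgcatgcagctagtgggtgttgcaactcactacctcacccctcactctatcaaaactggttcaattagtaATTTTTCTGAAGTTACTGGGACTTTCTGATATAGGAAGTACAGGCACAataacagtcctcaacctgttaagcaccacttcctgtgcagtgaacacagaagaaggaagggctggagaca
Ms4a6c: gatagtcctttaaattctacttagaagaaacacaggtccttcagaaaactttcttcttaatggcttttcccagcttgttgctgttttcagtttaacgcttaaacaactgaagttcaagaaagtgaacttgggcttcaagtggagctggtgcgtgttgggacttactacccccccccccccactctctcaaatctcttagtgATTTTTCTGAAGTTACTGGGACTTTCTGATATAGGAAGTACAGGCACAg

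The promoter of Cd53, which was called in all 3 comparisons of diets by its leading probe set, is chr3:106790150-106790399 (-), with capitals at a match to the short PU.1 letters GAGGAA.
Cd53: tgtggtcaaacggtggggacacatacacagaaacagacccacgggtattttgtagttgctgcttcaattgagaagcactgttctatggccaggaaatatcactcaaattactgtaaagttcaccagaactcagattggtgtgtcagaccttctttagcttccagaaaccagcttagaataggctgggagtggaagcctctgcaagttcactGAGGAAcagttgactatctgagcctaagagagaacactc

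Motifs were searched on both strands of the 250 bases as fixed letters. The short PU.1 letters GAGGAA were found in the windows of Cd53, Cd37, Ms4a4b and Ms4a4c, 4 of 9, against 23.3% of all 32851 promoters. In Ms4a4b and Ms4a4c the match starts 64 and 61 bases before the start, inside their similar block. The longer PU.1 letters GAGGAAGT, which contain the short ones, were found only in Cd37 (2.44% of all promoters). The interferon response motif was found in none of the 9 (2.98%), the AP-1 letters TGANTCA in 1 window of Ms4a7 (6.75%) and the E box letters CANNTG in 5 of 9 (66.2%). A match is a description of the letters and not evidence of binding.

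Ms4a4b encodes a membrane protein known from T cells. Its signals were 6.04, 4.28, 11.3, 11.3 and 12.8 in NC. They were 30.1, 34.1, 45.9, 52.5 and 38.5 in CL. They were 45.0, 23.6, 12.0, 25.3 and 32.7 in CL+CX. In NC 4 of the 5 mice sat under the array median, the CL mice were all above it, and CL+CX replicate 3 fell among the NC mice. CL was higher than NC by 2.23 (SE 0.343, limma adjusted p = 0.00079). CL+CX was higher than NC by 1.59 (SE 0.343, limma adjusted p = 0.0101), and differed from CL by -0.64 (95% interval -1.36 to 0.09, limma adjusted p = 0.327). A second Ms4a4b probe set lay below the array median in all 15 mice, and with the mean of both the difference of CL from NC was 0.78 (limma adjusted p = 0.0874).

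Ms4a4c is the neighbour of Ms4a4b. Its leading probe set is of the kind that can also bind related transcripts. Signals were 2.96, 9.71, 2.59, 10.6 and 10.5 in NC, under the median of the array in all 5 mice. They were 23.1, 22.5, 24.1, 37.2 and 21.7 in CL. They were 14.7, 6.98, 12.9, 17.0 and 32.0 in CL+CX. CL was at least 2.05-fold higher than NC (limma adjusted p = 0.00706), the bound being taken against the array medians of the NC mice. The CL+CX mice reached from the NC range to the CL range, and CL+CX passed neither test, with limma adjusted p = 0.0739 against NC and 0.361 against CL.

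Ms4a4d moved least among the MS4A members. Its signals were 66.6, 53.5, 46.9, 65.1 and 52.2 in NC. They were 167, 96.4, 101, 143 and 83.2 in CL. They were 117, 87.1, 111, 75.8 and 148 in CL+CX. Both CL groups lay wholly above NC and overlapped each other across most of their range. CL was higher than NC by 1.02 (SE 0.210, limma adjusted p = 0.00575) and CL+CX by 0.90 (SE 0.210, limma adjusted p = 0.0156). CL+CX and CL differed by -0.12 (95% interval -0.57 to 0.32, limma adjusted p = 0.802), and without CL replicate 1 by 0.02.

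Ms4a6b, which is expressed in lymphocytes among other leukocytes, had signals of 16.6, 33.7, 26.3, 39.4 and 34.5 in NC. They were 70.9, 108, 96.3, 142 and 110.3 in CL. They were 76.4, 44.1, 35.1, 73.9 and 94.6 in CL+CX. CL lay above NC without overlap, and CL+CX replicate 3 lay within the NC range. CL was higher than NC by 1.83 (SE 0.286, limma adjusted p = 0.000843). CL+CX was higher than NC by 1.07 (SE 0.286, limma adjusted p = 0.0279) and differed from CL by -0.76 (SE 0.286, limma adjusted p = 0.151). The call of CL+CX against NC was lost when NC replicate 1 or 3 or CL+CX replicate 1, 4 or 5 was left out.

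Ms4a6c, a gene of monocytes and macrophages, had signals of 21.1, 32.6, 25.8, 22.7 and 29.3 in NC. They were 87.1, 109, 102, 129 and 109 in CL. They were 74.7, 39.7, 43.0, 77.8 and 88.2 in CL+CX. NC lay below both other groups, and CL+CX replicate 5 alone reached the lowest CL mouse. CL was higher than NC by 2.03 (SE 0.215, limma adjusted p = 6.26e-05) and CL+CX by 1.24 (SE 0.215, limma adjusted p = 0.00318). CL+CX differed from CL by -0.79 (SE 0.215, limma adjusted p = 0.0573). A second Ms4a6c probe set was not tested.

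Ms4a6d, also a gene of macrophages, was read by 2 tested probe sets. The leading one had signals of 12.7, 13.5, 12.5, 9.71 and 10.9 in NC. They were 47.0, 37.3, 43.2, 68.1 and 55.6 in CL. They were 36.6, 23.1, 23.0, 24.5 and 46.6 in CL+CX. The NC signals lay close to the array median. CL+CX lay above NC in every mouse and reached into CL through replicate 5. CL was higher than NC by 2.06 (SE 0.209, limma adjusted p = 4.8e-05), CL+CX was higher than NC by 1.32 (SE 0.209, limma adjusted p = 0.00177), and CL+CX differed from CL by -0.74 (SE 0.209, limma adjusted p = 0.0655). The other tested probe set was under the array median in all 5 NC mice and at least 2.69-fold higher in CL (limma adjusted p = 0.00545), with a difference of CL+CX from CL of -1.25 (SE 0.571, limma adjusted p = 0.238). It passed the filter only through CL, so neither of these differences adds support.

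Ms4a7 is a gene of tissue macrophages. Its signals were 12.2, 28.9, 27.0, 7.33 and 17.5 in NC. They were 74.5, 34.2, 56.1, 87.2 and 63.3 in CL. They were 60.1, 35.5, 33.3, 20.8 and 26.3 in CL+CX. The NC mice differed up to several fold among themselves, CL replicate 2 came close to the highest NC mouse, and CL+CX overlapped both groups. CL was higher than NC by 1.87 (SE 0.370, limma adjusted p = 0.00473). CL+CX differed from CL by -0.87 (SE 0.370, limma adjusted p = 0.205) and from NC by 1.00 (SE 0.370, limma adjusted p = 0.0981).

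**Figure D3:**
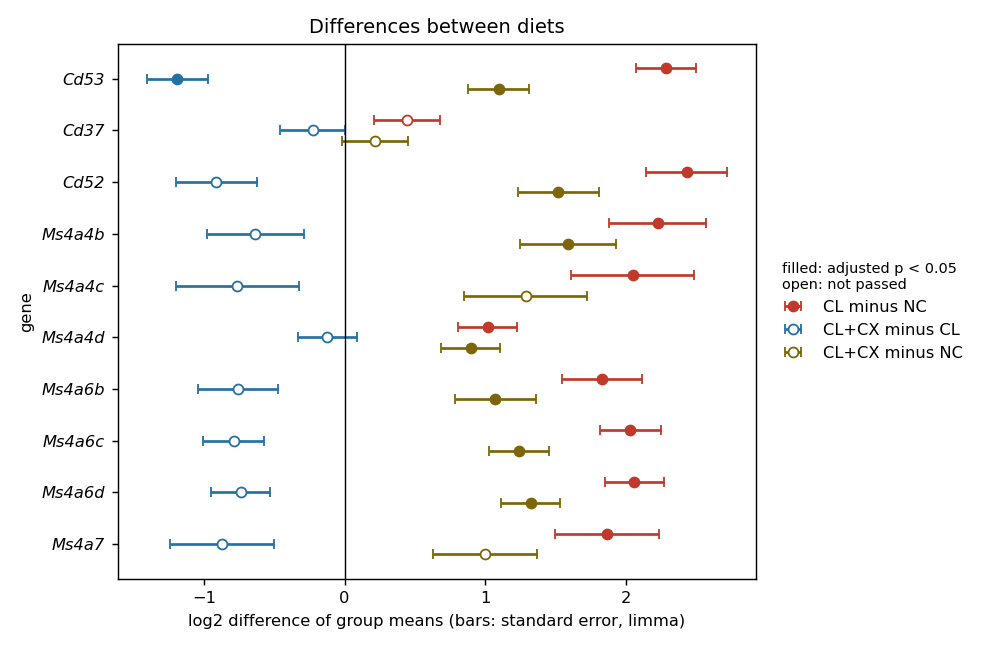
Log2 differences of group means for the 10 genes, with bars of 1 standard error from limma; filled points passed an adjusted p of 0.05 and open points did not. The CL minus NC points are filled in 9 genes, the CL+CX minus NC points in 7, and the CL+CX minus CL point in Cd53 alone at -1.19.

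Between CL and CL+CX, 1 of the 10 genes was called lower, against 1.79% of all genes tested, and 1 of 10 did not overlap in that direction, against 2.28%. All 10 differences were below 0, from -1.19 to -0.12 with a median of -0.76, where 46.3% of all genes had a difference below 0 and the median of all genes was 0.02. Ms4a4b and Ms4a4c passed the filter only through CL, which favours a lower CL+CX mean, so their part in these values is a description. At an unadjusted limma p under 0.05, 6 of the 10 were lower, against 8.95% of all genes, and neither of those genes was among the 6. CL+CX against NC gave 7 of 10 higher (5.13% of all genes), with Ms4a4c, Ms4a7 and Cd37 not called, and 5 of 10 without overlap (5.89%). Ms4a4b and Ms4a6d did not pass the filter through NC, so their part in these counts is a description. Cd53 was the only member called higher in CL and lower again in CL+CX, with a CL+CX mean closer to NC than CL was. The same, in these directions, held for 0.98% of all genes. The comparisons share the CL and NC mice, so their differences are not independent of each other.

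A measure of RNA quality moved with the β-cryptoxanthin comparison. The log2 signal of the 3′ β-actin control probe set minus the 5′ one was 0.937 ± 0.086 in NC, 0.822 ± 0.097 in CL and 1.07 ± 0.101 in CL+CX (SD, n = 5), and every CL+CX array lay above every CL array. With this difference as a covariate the change of Cd53 from CL to CL+CX was -0.96 (SE 0.342, limma adjusted p = 0.788) and no member was called, and of all 10508 genes 1 was called. Cd53 differed from NC in CL by 2.18 in the same fit (SE 0.249, limma adjusted p = 0.000595). The part of RNA quality in the result was not tested further.

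The mice within a diet differed in a way that most members shared. Averaged over the 10 genes relative to the NC mean, the CL mice lay between 1.62 and 2.25 and the CL+CX mice between 0.68 and 1.63. CL replicate 4 was the highest CL mouse in 8 of 10 genes. Among CL+CX mice replicate 5 was highest in 6 genes and replicate 3 lowest in 5. CL+CX replicates 5 and 1, with means of 1.63 and 1.48, were near the lowest CL mouse, whereas replicates 3 and 2 had 0.68 and 0.77. The SD among mice was larger in CL+CX than in CL for 8 of 10 genes, with medians of 0.552 and 0.329.

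**Figure D4:**
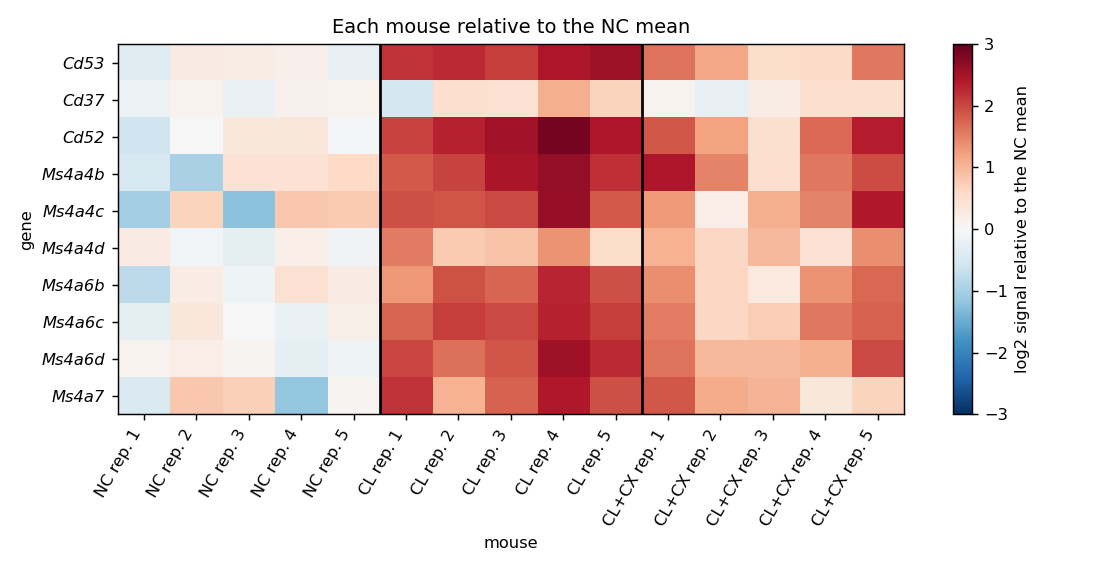
Log2 signal of each gene in each mouse relative to the NC mean of that gene, red above and blue below. The CL columns are red in all genes except for Cd37 in replicate 1, which is blue, and are reddest in replicate 4. The CL+CX columns are palest in replicates 2 and 3.

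General blood cell genes rose in the same livers, so each member was set against them mouse by mouse. The mean of 12 pan-leukocyte genes, among them Ptprc, which encodes CD45, was higher in CL than in NC by 1.38, with CL mice at 0.949 to 1.78 and NC mice at -0.41 to 0.20 relative to the NC mean. CL+CX mice lay at 0.173 to 1.20. Of the 12 genes 10 were called higher in CL, and Lcp1 (0.34, limma adjusted p = 0.115) and Vav1 (0.02, limma adjusted p = 0.962) were not. Hcls1 and Lsp1 did not pass the filter through NC, so their part in that count is a description. Cd52 rose by 1.05 more than this mean, Cd53 by 0.90 more, Ms4a4b by 0.84 more and Ms4a6c by 0.65 more (each exact two-sided permutation p = 0.00794, adjusted p = 0.0317 over 20 comparisons). Cd37 changed by 0.94 less (exact p = 0.00794, adjusted p = 0.0317). In these 5 genes the CL and NC mice did not overlap, and 0.00794 is the smallest p that 252 arrangements of 5 and 5 mice allow. Ms4a6d differed by 0.68 more with an exact permutation p of 0.0159 and an adjusted p of 0.0529. With an offset of 16 added to the signals the value of Ms4a4b was 0.16 (exact permutation, adjusted p = 0.289) and its groups overlapped. Ms4a4b also passed the filter only through CL, and Ms4a6d only through CL and CL+CX, so the excess of either over NC is a description.

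Between CL and CL+CX no member passed the adjusted test beside the pan-leukocyte mean. The mean itself differed by -0.66, and Cd53 by 0.53 more in the downward direction (exact permutation p = 0.0317, adjusted p = 0.0907 over 20 comparisons). Cd53 passed there with an offset of 16 (-0.56, exact permutation, adjusted p = 0.0317) and without CL+CX replicate 2 (-0.62, exact permutation, adjusted p = 0.0454). With Ptprc alone as the reference no member passed, and in CL against NC the value of Cd37 was -1.42 and that of Cd52 0.57, both without overlap and with an exact permutation p of 0.00794 and an adjusted p of 0.0529. Those of Cd53 (0.42), Ms4a4b (0.36) and Ms4a6c (0.16) overlapped. No member passed when NC replicate 2 or CL replicate 2, 3, 4 or 5 was left out. With each of the 15 mice left out in turn the 5 genes never overlapped between CL and NC, with values of 0.97 to 1.13 for Cd52, 0.79 to 0.98 for Cd53, 0.60 to 0.94 for Ms4a4b, 0.53 to 0.73 for Ms4a6c and -1.06 to -0.72 for Cd37.

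**Figure D5:**
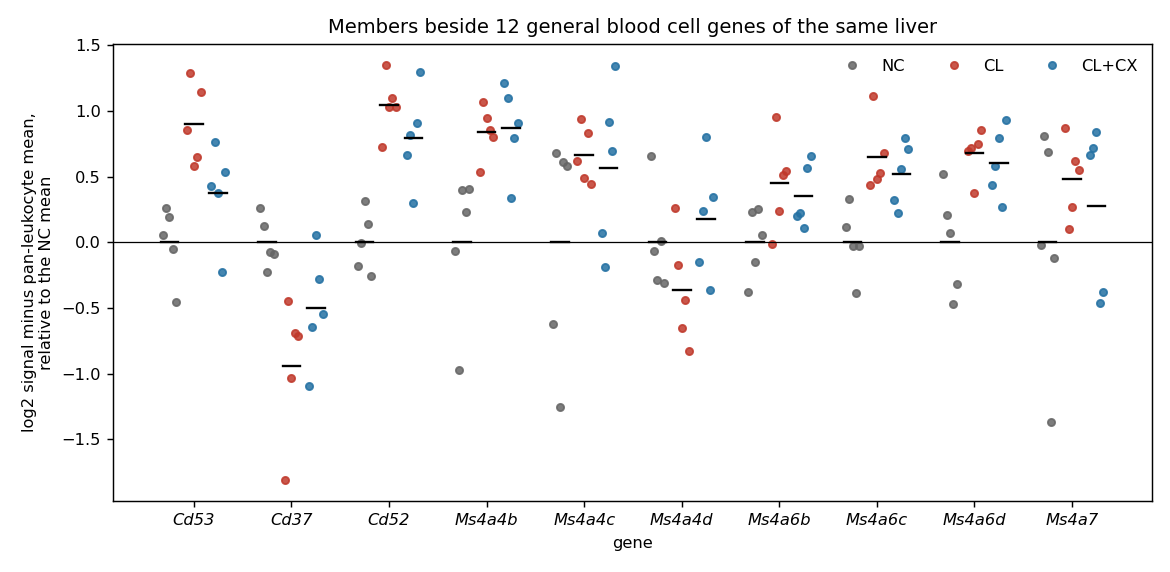
Log2 signal of each gene minus the mean of 12 pan-leukocyte genes in the same mouse, relative to the NC mean; points are mice and short lines are means of 5. The CL points of Cd53, Cd52, Ms4a4b and Ms4a6c lie above every NC point of their gene, and the CL points of Cd37 lie below.

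Marker lists of several cell types moved with the members. Of 13 macrophage markers tested, 13 were higher in CL and 9 fell with β-cryptoxanthin, with summed signals of 1316 to 2769 in NC, 8149 to 9856 in CL and 2699 to 6476 in CL+CX. Lyz2, which encodes lysozyme, changed most in CL, by 3.05. Kupffer cell markers were higher in CL in 5 of 8 and lower in CL+CX in none, with sums of 1423 to 2331, 2685 to 6143 and 2212 to 3278 in NC, CL and CL+CX. Monocyte markers were higher in 3 of 4, led by Ccr2 at 2.67, and lower in CL+CX in none, with sums of 109 to 169, 329 to 582 and 211 to 486. Ccr2 lay below the array median in every NC mouse, with signals of 4.44 to 10.8. It did not pass the filter through NC, so its difference from NC is a description. The part of each cell type in the members' differences was not tested.

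Lymphocyte markers were mostly dim. Of 11 T cell genes on the array 2 were tested, Lat and Cd3g, both higher in CL and neither called in CL+CX against CL, and the summed T cell signal was 61.9 to 97.3 in NC, 102 to 155 in CL and 73.5 to 146 in CL+CX. Lat and Cd3g passed the filter only through CL, so higher values in CL were built into their selection. Cd4 and Cd247 were below the array median in all 15 mice, and Cd3e in 14. Of 6 tested B cell genes Bank1 alone was higher in CL (0.62, limma adjusted p = 0.0424) and lower in CL+CX (-0.84, limma adjusted p = 0.0303), with sums of 113 to 201, 151 to 199 and 101 to 179 for the list and Cd79a below the median in all mice. NK cell genes were higher in 3 of 3 tested, with sums of 45.2 to 68.6, 87.8 to 177 and 57.5 to 122. None of these 3 passed the filter through NC, so that count is a description. Neutrophil genes were higher in 0 of 3, with sums of 59.3 to 123, 100.4 to 209 and 56.9 to 235, and of 2 dendritic cell genes Itgax was higher, with sums of 50.2 to 78.6, 72.0 to 187 and 73.6 to 133. Itgax did not pass the filter through NC either, so its rise is a description.

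Markers of cells other than leukocytes also differed between CL and CL+CX. All 8 sinusoidal endothelial markers tested had differences below 0, with a median of -0.85, against -0.76 for the members, and 2 were called, Clec4g (-0.83, limma adjusted p = 0.0349) and Oit3 (-0.97, limma adjusted p = 0.0282). The largest difference, that of Lyve1 (-1.17), did not pass. None of the 8 was called in CL against NC, and their summed signals were 1088 to 1388 in NC, 1278 to 1685 in CL and 628 to 1373 in CL+CX. Sox9, the 1 bile duct gene tested, was lower in CL+CX than in CL (-1.13, limma adjusted p = 0.0141), with sums for the list of 49.3 to 82.6, 28.6 to 161 and 26.3 to 66.8 in NC, CL and CL+CX. Of 8 stellate cell genes tested Timp1 was higher in CL (1.87, limma adjusted p = 0.0439) and none was called in CL+CX against CL, with sums of 787 to 1372, 804 to 2609 and 855 to 1427. Timp1 did not pass the filter through NC, so its rise is a description. The part of these cells in the members' differences was not tested.

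Tetraspanins outside the set mostly did not pass. Of 19 tested, 3 were higher in CL. Cd9, a tetraspanin of many cell types including platelets, had signals of 73.7 to 141 in NC, 237 to 382 in CL and 127 to 218 in CL+CX. It was higher in CL by 1.48 (SE 0.197) and fell by 0.80 with β-cryptoxanthin (limma adjusted p = 0.041). Tspan13 was higher in CL by 1.53 (SE 0.206) and was not called in CL+CX against CL (limma adjusted p = 0.344). Tspan13 did not pass the filter through NC, so its rise is a description. Tspan3 was higher in CL by 0.49 (SE 0.120) and fell by 0.60 with β-cryptoxanthin (limma adjusted p = 0.0206). Cd81, a tetraspanin of hepatocytes and many other cells, had 1264 to 1821 in NC and 1188 to 1741 in CL.

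The non-member genes whose pattern over the 15 mice was most like each member were found by the root mean square distance of log2 signals relative to the NC mean. For Cd53 they were Ctss (0.218), Cyba (0.225) and Cybb (0.263), against a median distance of 1.58 over 10498 genes. For Cd52 they were H2-Aa (0.291), H2-Ab1 (0.296) and Clec4n (0.307), and for Ms4a4b Clec4n (0.376), H2-Aa (0.380) and Hk3 (0.391), with Cd52 itself at 0.382 from Ms4a4b. Ms4a6b was closest to Itgal (0.256), Ms4a6d to Slamf9 (0.269), Ms4a7 to Gpr137b (0.398), Ms4a4c to AI662270 (0.437), Ms4a4d to Tifa (0.306) and Cd37 to Unc93b1 (0.275). The median distance over all genes was smaller for some members, at 0.947 for Ms4a4d and 0.590 for Cd37. The member nearest to Cd37, Ms4a4d, was farther from it than that median, at 0.725. Ms4a6c and Ms4a6d were closer to each other, at 0.273, than Ms4a6c was to any non-member gene, of which Aif1 was nearest at 0.288. These distances describe likeness of pattern and were not tested.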

How the data were processed

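Liver RNA was hybridised to 1 array per mouse, and the authors deposited MAS5 signal intensity per probe set on a linear scale, without the scaling and filters of their methods. Arrays were brought to the same 75th percentile, values under 1 were raised to 1 (11.29% of all values) and log2 was taken. A total of 64 control probe sets were left out of the tests. Names come from the platform annotation, which gives 1 symbol to 34958 probe sets, several to 932 and none to 9211, and only those with 1 symbol were named. The diets were fitted together by limma 3.58.1 (R 4.3.3). Benjamini-Hochberg adjustment covered every tested probe set, and the threshold was 0.05. The code was tested on simulated data. A fold is a lower bound where all 5 arrays of a group read below their median. The 1-array design limits precision, most near the array median.

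Every probe set of the 10 genes was described, together with other family members past the test, the leading genes of marker lists and the nearest genes by pattern. The members and lists were chosen with earlier results of these data known. Alternatives were other filters, scalings, offsets and tests, a replicate block, an RNA quality covariate, the mean of all probe sets and leaving out each mouse.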

Additional observations from a re-analysis of the deposited data

Results flagged for a closer look

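Ms4a4c in CL replicate 4 stood apart from its group. Its signal was 37.2, against 21.7 to 24.1 in the other 4 CL mice, and the gap to the nearest mouse on the log2 scale was 0.806 of the range of the group. It was the only such case among 30 groups of 5 mice, 10 genes on 3 diets. How often chance gives such a gap was not tested, and the 30 groups share mice, so no conclusion is drawn from it. The same mouse was the highest CL mouse in 8 of the 10 genes and in the mean of the pan-leukocyte genes, at 1.78. Without it Ms4a4c stayed called in CL against NC.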

How the results depend on the processing

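With the mean of all probe sets Cd53 (adjusted p = 0.355) and Ms4a4b (0.0874) were not called in CL against NC. The count of 9 genes higher in CL than in NC was 7 to 10 under the alternatives other than the stricter filter, which tested 5 genes and called 5, and it was 9 to 10 with 1 mouse left out. By the methods' test Ms4a4c (adjusted p = 0.0758) and Ms4a7 (0.064) were not called. The count of 1 gene lower in CL+CX than in CL, and equally the count of 1 returned gene, was 0 without a filter, 3 with the stricter filter, 4 with an offset of 16, 4 by the methods' test, 2 with a trend and robust prior, 0 with the actin covariate and 0 with the mean of all probe sets. With 1 mouse left out both counts were 1 to 4, and 4 without CL+CX replicate 5. Cd53 was called lower in CL+CX than in CL in 23 of 26 alternatives, and lost without a filter (adjusted p = 0.0882), with the actin covariate (0.788) and with the mean of all probe sets (0.712), which averages in a dim probe set. The count of 7 genes higher in CL+CX than in NC was 4 without a filter, 5 with the mean of all probe sets, 6 with the actin covariate, 8 without scaling and 6 to 8 with 1 mouse left out. The calls beside the pan-leukocyte genes over both comparisons, 5 in all, became 0 with Ptprc alone and ranged from 0 to 7 with 1 mouse left out. The 7, without CL+CX replicate 2, were 6 in CL against NC and Cd53 in CL+CX against CL, and with an offset of 16 the 5 were 4 in CL against NC and Cd53. Ms4a4c turned to 0.37 (adjusted p = 0.963) and Ms4a4d to 0.45 (adjusted p = 0.918) in CL+CX against CL with the actin covariate, and Ms4a4d, which ranged from -0.25 to 0.0151 with 1 mouse left out, to 0.0151 without CL replicate 1. The cause was not tested. Without scaling, the median difference over all probe sets in CL against NC was 0.23 in place of -0.09, and Cd37 was then called too (adjusted p = 0.0246). Equal replicate numbers do not pair the mice, whose deviations correlated at -0.13 to 0.14. With the replicate number as a block the counts were 9, 1, 7 and 1, and the adjusted p of Cd53 in CL+CX against CL was 0.0371. Signals of Cd37 lay near the array median. In NC those of Ms4a4b, Ms4a4c and the leading probe set of Ms4a6d lay near or below it, and those of Ms4a7 ran from 7.33 to 28.9. In some CL+CX mice Ms4a4b and Ms4a4c were also near or below it.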

Other observations

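The 8 member probe sets that were not tested were dim. Among them the second probe set of Ms4a4c had geometric mean signals of 4.09 in NC, 15.5 in CL and 11.1 in CL+CX, and the second probe set of Ms4a6b 2.99, 11.6 and 8.34. The second probe set of Ms4a6c had 5.44, 10.2 and 11.1. That of Cd37 had 1.42, 2.70 and 2.89, and that of Ms4a7 had 1.58, 2.37 and 1.07. The third probe set of Ms4a6d had 1.33, 1.42 and 1.56. The second probe sets of Cd53 (3.70, 1.91 and 2.53) and Ms4a4b (2.22, 1.41 and 1.94) were lower in CL than in NC.

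Tmem176a and Tmem176b, which are related to the MS4A genes in sequence, were bright in these livers and were called in no comparison. Tmem176a had signals of 990 to 1871 in NC and 1209 to 1651 in CL, with a difference of 0.08 (limma adjusted p = 0.816), and Tmem176b differed by -0.03 (limma adjusted p = 0.943).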
